A study of Mus musculus with 2 samples.

Results

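The genes described here encode the oxidative phosphorylation machinery, the chain of 5 protein complexes in the inner mitochondrial membrane that oxidises NADH and succinate, passes the electrons to oxygen and uses the resulting proton gradient to make ATP. Its subunits come from both genomes of the cell: a small set is transcribed from the mitochondrial DNA as long polycistronic RNAs that are cut into separate messages, and the rest are nuclear genes transcribed one by one, whose products are imported. Complex II is wholly nuclear encoded, and the other complexes are assembled from subunits of both origins. Members were chosen by symbol alone, as every gene whose name begins with mt-Nd, mt-Co, mt-Atp or mt-Cytb, with Nduf followed by a, b, c, s or v, with Uqcr, with Cox4 to Cox8 or with Atp5, plus Sdha to Sdhd, leaving out pseudogenes. This gave 105 of the 28693 genes in the count matrix, 13 mitochondrially and 92 nuclear encoded. The mitochondrial set holds 7 genes of complex I (NADH dehydrogenase), 1 of complex III (cytochrome bc1), 3 of complex IV (cytochrome c oxidase) and 2 of complex V (ATP synthase). The nuclear set holds 36 complex I genes, 7 further Ndufaf genes for complex I assembly factors, 4 genes of complex II (succinate dehydrogenase), 8 of complex III, 20 of complex IV and 17 under the Atp5 names of complex V.

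The cells came from whole pituitary glands of male C57BL/6 mice aged 7 weeks, housed singly, with no second treatment or genotype. Each of the 2 libraries was made from a pool of 3 glands, dispersed by 4 h of enzyme digestion at 37 °C, and sequenced with 10x Genomics 3′ chemistry, which counts each captured transcript once by its unique molecular identifier (UMI). The question put to the data was how the transcripts of both genomes are set against each other in the cell types of the gland. Animals are not separable within a pool, so the 2 pools are the only replicates. Every p-value rests on how much differences between classes vary from pool to pool.

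The deposited matrix had 70813117 UMIs over the 6546 barcodes of library 1, and 78861988 UMIs over the 7117 of library 2. After removal of low-quality cells and likely doublets, 6011 and 6523 cells were used, of which 5391 and 5930 fell into 11 classes named from marker genes that include no member. There were 5 hormone classes, with 5439 somatotrope-like, 3324 lactotrope-like, 605 gonadotrope-like, 574 corticotrope-like and 255 melanotrope-like cells over both libraries. The 6 other classes were 327 stem-like, 186 cycling, 277 endothelial-like, 162 fibroblast-like, 114 macrophage-like and 58 pituicyte-like cells, pituicytes being the glia of the posterior lobe. Hormone messages can make up most of a cell's UMIs, so every level below is in CPM, UMIs scaled to a library total of 1e6, or in percent, of the UMIs left after Gh, Prl, Pomc, Cga, Lhb, Fshb and Tshb were set aside. Of the barcode sequences, 54 occurred in both libraries.

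Nuclear respiratory factor 1 (NRF1) is a transcription factor known for binding promoters of respiratory chain genes in mammals, through a palindromic GC-rich site. Its letters, GCGC, then any base and a T, then GCGC again, searched on both strands, were present in the 250 bases upstream of 14 of the 76 nuclear members with an upstream sequence from RefSeq (GRCm38.p6), 18.4%, against 4.23% of 27025 genes. The ETS family core CCGGAAG occurred in 17.1% of the members and 7.83% of all genes. The YY1 letters AAGATGGC were present in 2.6% of members and 1.83% of all genes. TATAAA occurred in 7.9% of members and 14.3% of all genes. All genes here are those with an upstream sequence, whether or not they were detected in the gland, while nearly all members were. Stretches around the NRF1 letters, in capitals, are printed 5′ to 3′ on the gene's strand for 6 of these 14 members, from complexes I, II and V. They were chosen for holding the letters, so their likeness follows from the choice. Most members with an upstream sequence lacked the letters. Among these, Uqcrh, Uqcr11, Uqcrc1, Uqcr10 and Uqcrfs1 of complex III had no match. Of the complex IV genes only Cox6a1 had a match.

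Ndufa8 (complex I, chr2:36049349-36049378, minus strand): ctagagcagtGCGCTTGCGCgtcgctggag
Ndufb4 (complex I, chr16:37654540-37654569, minus strand): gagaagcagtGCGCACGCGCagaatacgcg
Ndufa11 (complex I, chr17:56717692-56717721, plus strand): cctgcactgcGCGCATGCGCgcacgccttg
Sdha (complex II, chr13:74350319-74350348, minus strand): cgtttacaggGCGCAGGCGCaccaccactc
Sdhd (complex II, chr9:50603909-50603938, minus strand): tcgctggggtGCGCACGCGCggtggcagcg
Atp5g2 (complex V, chr15:102671070-102671099, minus strand): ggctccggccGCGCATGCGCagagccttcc

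A match is a run of letters and was not tested as a binding site. In the tests against hormone classes described further on, 6 of the 14 members with the letters were higher and 1 lower in gonadotrope-like cells, where 20.2% of all genes were higher and 16.2% lower. Of the 61 tested members without the letters, 32 were higher there and 2 lower. In stem-like cells 13 of the 14 were lower, and 43 of the 61 without them, where 23.8% of all genes were lower. Whether members with and without the letters differ was not tested.

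Pituicyte-like, gonadotrope-like and melanotrope-like cells had the highest shares of mitochondrially encoded transcripts, and endothelial-like and macrophage-like cells the lowest. The 13 mitochondrial genes took 10.5% of the UMIs outside hormone genes in pituicyte-like cells of both libraries, 9.24% and 8.82% in gonadotrope-like cells, and 8.02% and 7.14% in melanotrope-like cells. They took 2.25% and 2.60% in macrophage-like cells and 2.55% and 2.13% in endothelial-like cells. The remaining classes lay between, from 5.98% in both libraries in corticotrope-like cells down to 3.79% and 3.76% in cycling cells. Neighbours in this order had overlapping library values in 4 places: stem-like with somatotrope-like, lactotrope-like with fibroblast-like, fibroblast-like with cycling, and macrophage-like with endothelial-like cells.

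The nuclear encoded members followed another order, and a narrower one. Their share was highest in melanotrope-like cells, at 5.04% and 5.01%, then in gonadotrope-like cells, at 4.75% and 4.92%, and lowest in macrophage-like cells, at 1.97% and 1.71%. Pituicyte-like cells, at the top for the mitochondrial genes, came next with 4.14% in both libraries, close to somatotrope-like cells with 3.94% and 4.07%. Over the class means the mitochondrial share spanned 2.34% to 10.5% and the nuclear share 1.84% to 5.02%. Across the 11 classes both shares had a Pearson correlation of 0.78 and a Spearman correlation of 0.82, a description of points that have their libraries and totals in common.

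The ratio of mitochondrially to nuclear encoded UMIs therefore differed between classes. It was 2.54 and 2.55 in pituicyte-like cells, 1.94 and 1.79 in gonadotrope-like cells and 1.79 and 1.73 in stem-like cells. Gonadotrope-like and stem-like cells overlapped at 1.79, and both lay below pituicyte-like cells and above the 8 other classes. Stem-like cells reached this ratio with a middling mitochondrial share and a nuclear share of 3.01% and 2.97%, which overlapped that of fibroblast-like cells (3.15% and 2.91%) and lay above those of endothelial-like and macrophage-like cells. Corticotrope-like (1.53 and 1.54), melanotrope-like (1.59 and 1.42), fibroblast-like (1.46 and 1.21), macrophage-like (1.15 and 1.52), somatotrope-like (1.33 and 1.27) and lactotrope-like cells (1.31 and 1.20) overlapped each other in turn. Cycling cells had a ratio of 1.06 and 1.01. Endothelial-like cells were the one class in which nuclear encoded transcripts outnumbered mitochondrially encoded ones in both libraries, with a ratio of 0.89 and 0.723. The ratio is one of captured 3′ ends and carries no test.

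**Figure D1:**
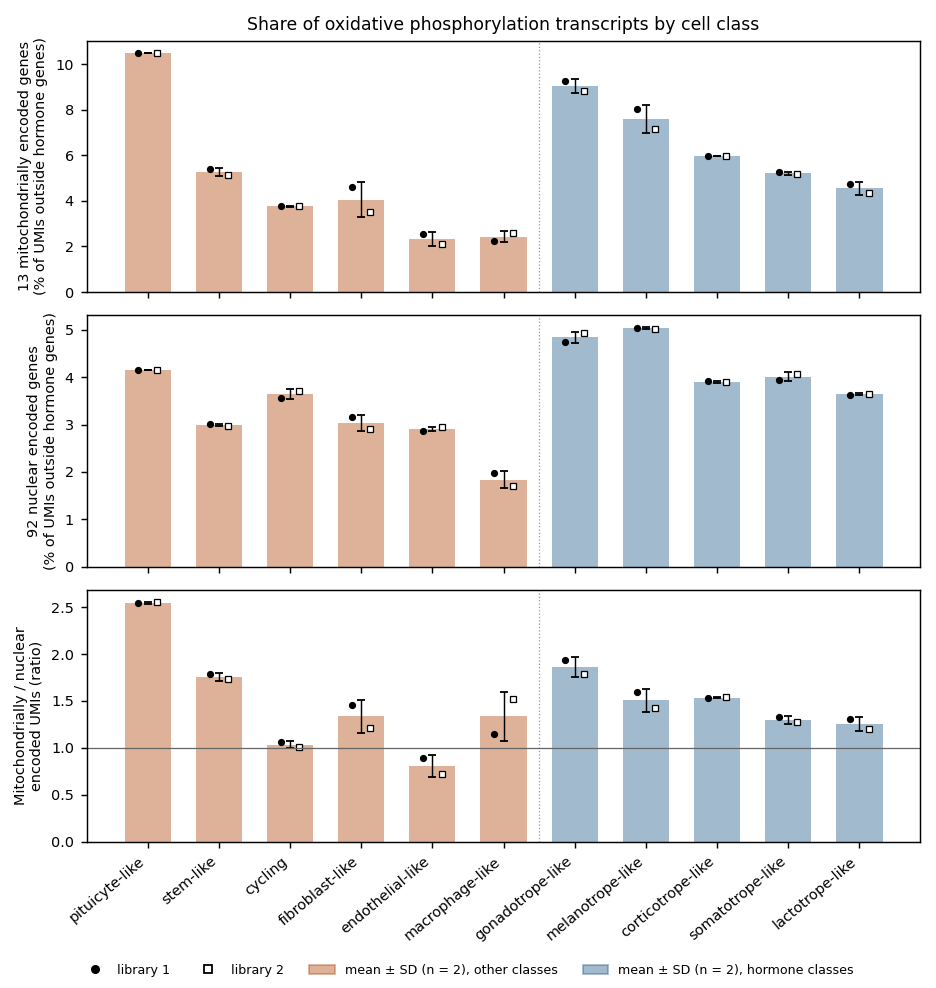
Share of UMIs outside hormone genes taken by the 13 mitochondrially encoded and the 92 nuclear encoded members (percent), and the ratio of both, in each of the 11 cell classes, as bars for the mean with SD (n = 2 libraries) and a point for each library. Pituicyte-like cells have the highest mitochondrial share (10.5%) and ratio (2.54 and 2.55), melanotrope-like cells the highest nuclear share (5.04% and 5.01%), and endothelial-like cells a ratio below 1.

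Cell by cell, the median mitochondrial share was 11.1% and 10.7% in pituicyte-like cells, 8.97% and 8.50% in gonadotrope-like cells and 2.04% and 1.89% in endothelial-like cells. The class sums lay below these medians in pituicyte-like cells (10.5% in both libraries) and above them in endothelial-like cells (2.55% and 2.13%). In fibroblast-like cells the sums were 4.59% and 3.53%, beside medians of 3.71% and 3.10%. How far single cells carry the class sums was not tested. A share above 10% is often taken as a sign of a damaged cell. Of the UMIs outside hormone genes, it was found in 59.1% and 58.3% of the pituicyte-like cells, 35.8% and 30.4% of the gonadotrope-like cells and 30.4% and 16.4% of the melanotrope-like cells, and in at most 8.63% of the cells of the 8 other classes. Of all UMIs, hormone messages included, it was found in 59.1% and 52.8% of the pituicyte-like cells, 15.4% and 13.1% of the gonadotrope-like cells and 5.22% and 4.29% of the melanotrope-like cells, and in at most 4.31% of the cells of the others. The part of cell damage in these levels was not tested. Cells with over 20% mitochondrial UMIs, of all UMIs, had been removed in every class, and with this maximum lifted the mean log2 ratio in pituicyte-like cells was 1.45, against 1.35 with it. The mitochondrial share varied more between cells than the nuclear share in 21 of 22 class and library sets, the exception being stem-like cells of library 2. The coefficient of variation ran over these sets from 0.291 to 1.0 for the mitochondrial and from 0.14 to 0.316 for the nuclear share. Within sets the Spearman correlation of both shares over cells lay between -0.35 and 0.36. In melanotrope-like and lactotrope-like cells the mitochondrial share was lower in deeper cells, with Spearman correlations with depth of -0.58 and -0.60 in the first and -0.50 and -0.42 in the second. These correlations were -0.36 and -0.20 in corticotrope-like, -0.35 and -0.27 in pituicyte-like and -0.14 and -0.07 in cycling cells. In the remaining classes the sign differed between the libraries.

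For the tests on single genes, UMIs were summed per class and library, and each class was set against the 5 hormone classes on average (a hormone class against the 4 others) by edgeR's quasi-likelihood test, with adjusted p-values over 12015 genes and a threshold of 0.05. All 13 mitochondrial and 89 nuclear members were abundant enough to be tested. The untested members were Cox7b2, Cox8c and Cox6a2, isoforms of complex IV subunits known from testis (Cox7b2, Cox8c) and from heart and skeletal muscle (Cox6a2). All 13 mitochondrial members and 88 of the 89 nuclear members differed among the classes, in a background where 95.0% of all genes did, so the count itself says little about the members. The exception was Ndufaf1, an assembly factor (adjusted p = 0.139). The range over class means was 1.10 to 2.86 on the log2 scale for the mitochondrial members, with a median of 2.14, and 0.62 to 8.40 for the nuclear members, with a median of 1.62.

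In gonadotrope-like cells the mitochondrial genes were higher nearly as a set. Of the 13, 12 were higher than in the other hormone classes, where 20.2% of all genes were higher and 16.2% lower, and mt-Nd6 did not pass the test (3.16 and 8.63 CPM, against 6.55 and 4.58 CPM; adjusted p = 0.832). The median log2 difference was 0.72, beside -0.01 over all genes. The largest difference was that of mt-Nd5, a proton-pumping subunit of complex I, with 635 and 633 CPM in gonadotrope-like cells against 286 and 283 CPM in the other hormone classes (log2 fold change 1.18 ± 0.07 SE, adjusted p = 1.53e-29). mt-Nd2, another membrane subunit of complex I, had 1842 and 1668 CPM against 883 and 830 CPM (1.04 ± 0.06, adjusted p = 4.23e-29). The smallest among those called was that of mt-Cytb, the catalytic cytochrome b of complex III, with 11980 and 11046 CPM against 8342 and 7758 CPM (0.54 ± 0.05, adjusted p = 9.29e-13). The libraries of both sides did not overlap for any of these 3 genes.

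In pituicyte-like cells 11 of the 13 were higher than in the hormone classes, where 13.7% of all genes were higher and 6.99% lower. The median log2 difference was 0.78, beside 0.00 over all genes. mt-Nd1, a core membrane subunit of complex I, stood at 9975 and 10482 CPM in pituicyte-like cells against 4391 and 4211 CPM in hormone classes (1.30 ± 0.06, adjusted p = 6.24e-24). mt-Nd3, another core subunit, had 453 and 484 CPM against 211 and 225 CPM (1.14 ± 0.14, adjusted p = 1.04e-10). The catalytic complex IV subunit mt-Co1 was the least changed of those called, with 13916 and 13733 CPM against 11147 and 11098 CPM (0.38 ± 0.12, adjusted p = 0.0493). The lower-count genes mt-Atp8 and mt-Nd6 did not pass (adjusted p = 0.456 and 0.441). This class rests on 22 and 36 cells.

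Melanotrope-like cells, the intermediate-lobe cells that process POMC to melanotropins, had 7 of the 13 mitochondrial genes higher, where 11.9% of all genes were higher and 6.08% lower. The genes of 1 genome did not move evenly here. The proton-channel subunit of ATP synthase, mt-Atp6, had 19386 and 17150 CPM in melanotrope-like cells against 12465 and 11681 CPM in the other hormone classes (0.65 ± 0.05, adjusted p = 1.01e-13). mt-Cytb had 11288 and 9840 CPM against 8515 and 8060 CPM (0.39 ± 0.06, adjusted p = 1.16e-07). By contrast mt-Nd2 (adjusted p = 0.744), mt-Nd3 (0.678), mt-Nd5 (0.588) and mt-Co1 (0.242) did not pass the test. With TMM scaling, which rescales totals by a trimmed mean over genes, 2 of the 13 passed instead of 7. The median over all genes was then -0.12, beside 0.00 without it. Set against corticotrope-like cells, the other POMC cells, 7 of the 13 were higher, where 10.7% of all genes were higher and 9.55% lower, and with TMM scaling 4 passed. mt-Atp6 again differed most, at 19386 and 17150 CPM against 11141 and 10592 CPM in corticotrope-like cells (0.75 ± 0.07, adjusted p = 1.07e-11), and mt-Co1 did not pass (12498 and 11760 CPM, against 12121 and 12694 CPM; adjusted p = 0.944).

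Endothelial-like and macrophage-like cells each had 11 of the 13 lower. For endothelial-like cells the background was 28.5% of all genes higher and 30.1% lower, and for macrophage-like cells 12.1% higher and 36.9% lower. The catalytic and structural subunits of complex IV led in endothelial-like cells: mt-Co1 had 3377 and 2606 CPM against 11147 and 11098 CPM in hormone classes (-1.84 ± 0.14, adjusted p = 3.39e-07), and mt-Co3 had 5544 and 4660 CPM against 17419 and 16412 CPM (-1.69 ± 0.07, adjusted p = 1.36e-22). mt-Nd1 differed less, with 2458 and 2214 CPM against 4391 and 4211 CPM (-0.84 ± 0.07, adjusted p = 1.17e-15). The exception was mt-Nd6, the one member transcribed from the other strand of the mitochondrial genome, which was higher at 15.5 and 13.3 CPM against 5.87 and 5.39 CPM (1.36 ± 0.44, adjusted p = 0.00494). It rests on 11 UMIs in each endothelial-like library and overlaps the end of mt-Nd5 (chrM:13552-14070, minus strand, beside chrM:11742-13565, plus strand). Whether the counting used strand is not given, so reads of the stretch that both genes cover cannot be told apart.

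In macrophage-like cells mt-Nd5 was the lowest relative to hormone classes, with 86.6 and 86.4 CPM against 355 and 353 CPM (-1.93 ± 0.17, adjusted p = 1.19e-17). All genes together were shifted in this class, with a median of -1.11 beside a median of -1.33 for the mitochondrial and -1.20 for the nuclear members. With TMM scaling these medians were -0.52, -0.74 and -0.59, and 9 mitochondrial members were lower. Summed erythrocyte markers stood at 18656 CPM in the macrophage-like cells of library 1 and 99.6 CPM in those of library 2, and their part in these levels was not tested.

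Cycling and lactotrope-like cells also had 11 of the 13 lower. The background was 25.0% higher and 11.9% lower for cycling cells, and 16.8% higher and 25.7% lower for lactotrope-like cells. In cycling cells mt-Co1 had 5493 and 5840 CPM against 11147 and 11098 CPM in hormone classes (-0.91 ± 0.13, adjusted p = 0.000172), and in lactotrope-like cells 7257 and 6817 CPM against 12120 and 12168 CPM in the other hormone classes (-0.75 ± 0.13, adjusted p = 0.000585). Fibroblast-like cells had 9 of the 13 lower (19.9% of all genes higher, 17.6% lower), again with mt-Co1 foremost, at 6067 and 4047 CPM against 11147 and 11098 CPM (-1.08 ± 0.13, adjusted p = 4.98e-05). Somatotrope-like cells had 9 of the 13 lower (26.8% of all genes higher, 20.3% lower), with a median of -0.37, and with TMM scaling 1 was higher and 8 lower. Stem-like cells had 7 of the 13 lower (34.4% of all genes higher, 23.8% lower), with a median of -0.17. That count was 2 with DESeq2 and 4 without the library block.

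**Figure D2:**
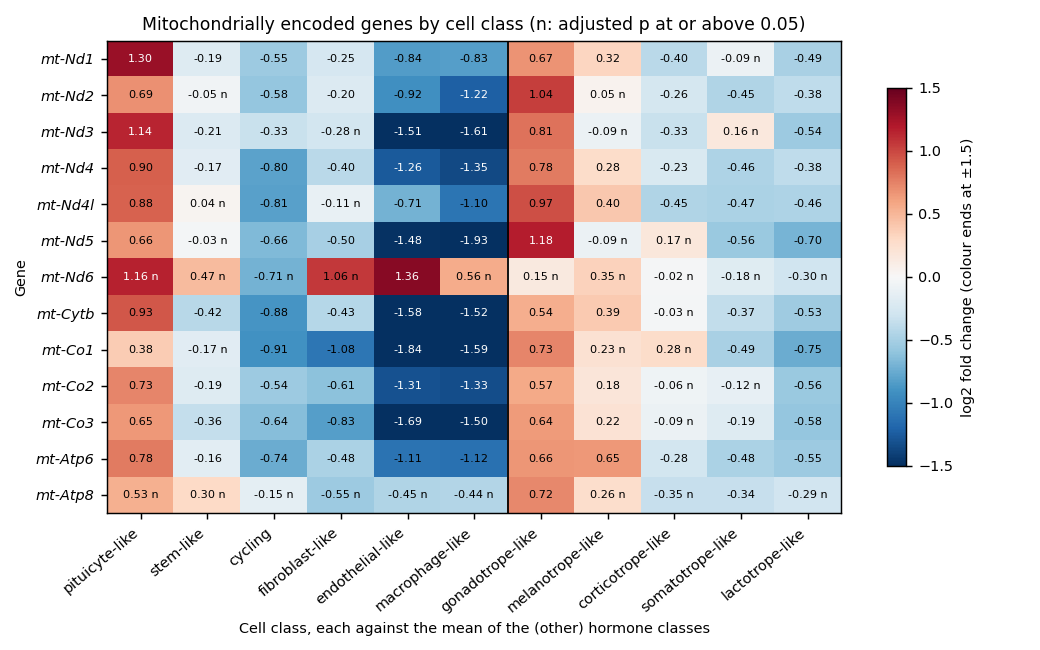
Heat map of the log2 fold change of each of the 13 mitochondrially encoded members (rows) in each class (columns) against the hormone classes, red for higher and blue for lower, with colour ending at ±1.5 and an n where the adjusted p was 0.05 or more. The pituicyte-like and gonadotrope-like columns are red throughout, with mt-Nd6 palest and marked n in gonadotrope-like cells, the endothelial-like and macrophage-like columns blue apart from mt-Nd6 (1.36 in endothelial-like cells). In melanotrope-like cells mt-Atp6 stands out at 0.65.

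Corticotrope-like cells, which make ACTH, had 6 of the 13 lower and a mitochondrial share near the middle (17.9% of all genes higher, 12.2% lower). They differed in composition. mt-Co1 was 20.3% and 21.2% of all mitochondrially encoded UMIs there, the highest values of any class, in a range that began at 11.5% in fibroblast-like cells. mt-Nd1 was 5.56% and 5.61% there, the lowest values in a range up to 10.4% in endothelial-like cells. In CPM, mt-Nd1 was lower at 3325 and 3353 against 4657 and 4425 in the other hormone classes (-0.40 ± 0.06, adjusted p = 1.27e-06), and mt-Co1, at 12121 and 12694 against 10903 and 10699, did not pass the test (adjusted p = 0.111).

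Among the nuclear members, gonadotrope-like and melanotrope-like cells again stood above the other hormone classes. The orders given below are among members past the test that had the same direction in both libraries and at least 50 CPM on the higher side, which leaves out most tissue isoforms, described further on. In gonadotrope-like cells 46 of the 89 tested were higher and 3 lower, beside 20.2% and 16.2% of all genes, with a median of 0.23 beside -0.01. By complex, 20 of 36 complex I genes were higher and 1 lower, 6 of 8 complex III genes were higher, 9 of 17 tested complex IV genes were higher and 1 lower, and 7 of 17 complex V genes were higher and 1 lower. Ndufa1, an X-linked accessory subunit needed for complex I assembly (chrX:37187588-37191163, mm10), had the largest difference at this level, with 1475 and 1719 CPM against 606 and 661 CPM in the other hormone classes (1.39 ± 0.06, adjusted p = 1.81e-37). Atp5g3, one of 3 genes that encode the same membrane ring subunit c of ATP synthase, had 553 and 573 CPM against 307 and 312 CPM (0.88 ± 0.07, adjusted p = 2.09e-20). Its paralog Atp5g2 was lower, at 651 and 688 CPM against 803 and 776 CPM (-0.22 ± 0.06, adjusted p = 0.00503). The complex IV subunit gene Cox7c had 2191 and 2461 CPM against 1277 and 1367 CPM (0.83 ± 0.06, adjusted p = 2.95e-24). The complex I subunit gene Ndufb4, whose upstream letters are printed above, had 730 and 732 CPM against 452 and 461 CPM (0.72 ± 0.06, adjusted p = 1.58e-17). The lower ones besides Atp5g2 were Cox7a2l, which encodes a factor that joins complexes III and IV into supercomplexes (-0.49), and Ndufv3, a subunit of the NADH-oxidising part of complex I (-0.43).

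In melanotrope-like cells 46 of the 89 were higher and 1 lower, with a median of 0.28, beside 11.9% and 6.08% of all genes and an all-gene median of 0.00. With TMM scaling 34 were higher and 4 lower. Complex I contributed 23 of its 36 genes, all higher, and complexes IV and V 9 of 17 each. Atp5e, the epsilon subunit of the ATP synthase stalk (chr2:174461072-174464105), had 2697 and 3034 CPM against 1390 and 1512 CPM in the other hormone classes (1.0 ± 0.06, adjusted p = 6.72e-28). Uqcrq of complex III had 1045 and 1049 CPM against 640 and 658 CPM (0.73 ± 0.07, adjusted p = 3.25e-15). Ndufb2 (0.70) and Ndufa4 (0.69) followed, the second named as a complex I gene although its protein is found in complex IV. The one lower member was Cox7a2l, at 639 and 515 CPM against 818 and 753 CPM (-0.42 ± 0.08, adjusted p = 1.31e-05).

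Against corticotrope-like cells, 39 nuclear members were higher in melanotrope-like cells and 3 lower, beside 10.7% and 9.55% of all genes. Atp5e had 2697 and 3034 CPM against 1246 and 1271 CPM (1.19 ± 0.08, adjusted p = 8.23e-24), and Ndufa4 had 943 and 909 CPM against 437 and 410 CPM (1.13 ± 0.09, adjusted p = 6.91e-19). Cox5a, a nuclear subunit of complex IV, differed by 0.97 and Ndufa1 by 0.96. Sdha, the flavoprotein of complex II, was lower at 203 and 166 CPM against 248 and 265 CPM (-0.48 ± 0.14, adjusted p = 0.00663). Nearly all members that passed between the POMC classes were thus higher in melanotrope-like cells, with Sdha, Cox7a2l (-0.35) and the muscle isoform Cox8b (1.85 and 0.0 CPM, against 8.28 and 16.3 CPM in corticotrope-like cells) as the 3 exceptions. The Cox8b levels rest on 1 and 0 UMIs in melanotrope-like and 9 and 21 UMIs in corticotrope-like cells.

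Corticotrope-like cells had 9 nuclear members higher and 26 lower than the other hormone classes, beside 17.9% and 12.2% of all genes, a split that was 5 and 31 with TMM scaling and 4 and 39 with TMM over all genes. Atp5g1, the second of the subunit c genes (chr11:96068852-96075670), was lowest relative to them, with 600 and 610 CPM against 1316 and 1349 CPM (-1.11 ± 0.09, adjusted p = 7.39e-13). Cox5a had 118 and 123 CPM against 229 and 220 CPM (-0.88 ± 0.10, adjusted p = 6.10e-12). Sdha was the highest of those with at least 50 CPM, with 248 and 265 CPM against 205 and 193 CPM (0.38 ± 0.09, adjusted p = 0.000751), followed by Atp5g2 (0.34), Ndufc2 (0.31) and Ndufa8 (0.29).

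Somatotrope-like cells showed the opposite for the same subunit c gene. Atp5g1 had 1696 and 1869 CPM there against 1042 and 1035 CPM in the other hormone classes (0.84 ± 0.07, adjusted p = 2.68e-12). Cox7a2l, lower in gonadotrope-like and melanotrope-like cells, was higher at 1081 and 957 CPM against 707 and 642 CPM (0.62 ± 0.06, adjusted p = 2.51e-15). In all, 7 nuclear members were higher and 38 lower, beside 26.8% and 20.3% of all genes, and 11 and 28 with TMM over all genes. Of those with at least 50 CPM in either, Ndufa1 was the lowest, at 435 and 489 CPM against 866 and 968 CPM (-0.84 ± 0.07, adjusted p = 6.09e-20), followed by the assembly factor gene Ndufaf3 (-0.77), Ndufb4 (-0.60) and Ndufc2 (-0.57).

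Lactotrope-like cells had 2 nuclear members higher and 55 lower, beside 16.8% and 25.7% of all genes, and a median of -0.27 beside -0.09. The number of calls was 35 with TMM scaling, and 5 higher and 28 lower with TMM over all genes. Cox6c of complex IV had 796 and 834 CPM against 1324 and 1370 CPM in the other hormone classes (-0.71 ± 0.06, adjusted p = 4.06e-18), and Atp5e had 1114 and 1222 CPM against 1785 and 1965 CPM (-0.62 ± 0.06, adjusted p = 3.36e-15). Cox7a2l was higher, at 853 and 824 CPM against 764 and 675 CPM (0.27 ± 0.06, adjusted p = 0.00021).

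**Figure D3:**
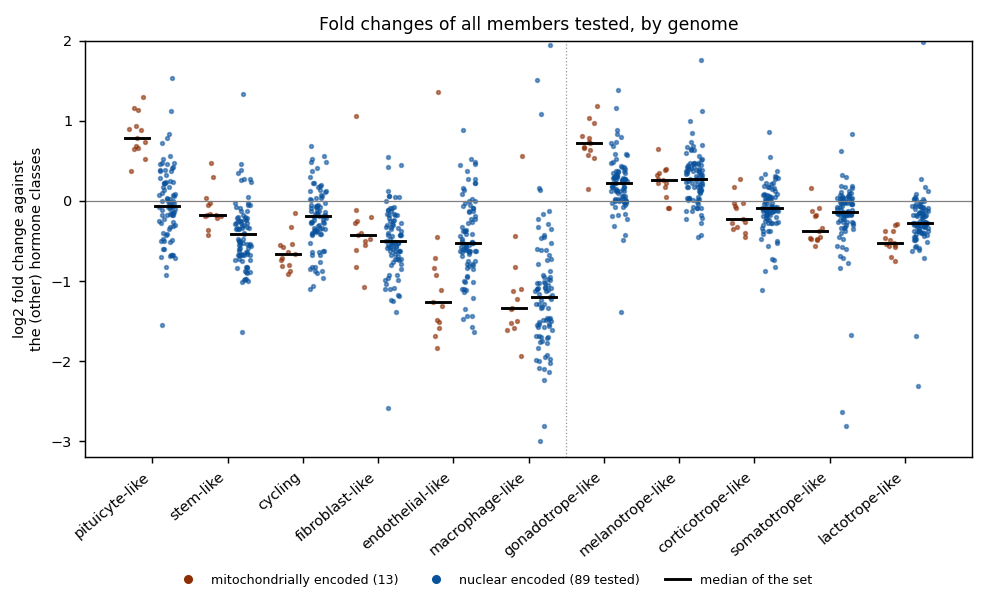
Log2 fold change of each member tested, 13 mitochondrially and 89 nuclear encoded, in each class against the hormone classes, a point per gene and a bar for the median of each set. In pituicyte-like cells the mitochondrial median is 0.78 and the nuclear median -0.06, and in gonadotrope-like cells they are 0.72 and 0.23. The axis runs from -3.2 to 2.0, and 26 values beyond it are not drawn.

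By these medians, pituicyte-like cells were the class in which the 2 genomes stood furthest apart among the 11. Beside 11 mitochondrial members higher, 16 nuclear members were higher and 12 lower, with a median of -0.06. The share higher was not far from the 13.7% of all genes, and the share lower was above their 6.99%. This split depended on scaling: with TMM 5 nuclear members were higher and 35 lower, while 10 mitochondrial members were higher. The median over all genes was -0.24 with TMM, beside 0.00 without it. Cox6c had 2137 and 2068 CPM against 1218 and 1263 CPM in hormone classes (0.79 ± 0.07, adjusted p = 8.46e-17), and Cox5a had 410 and 313 CPM against 207 and 201 CPM (0.84 ± 0.15, adjusted p = 5.48e-06). Atp5e was lower, at 838 and 900 CPM against 1651 and 1816 CPM (-0.92 ± 0.09, adjusted p = 1.50e-15). Of complex V 6 of 17 genes were lower and 1 higher, while of complex IV 5 of 17 were higher and 1 lower.

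In stem-like cells, 65 of the 89 nuclear members were lower and 8 higher, beside 23.8% and 34.4% of all genes, with a median of -0.41 beside 0.11 over all genes. The lower ones included 29 of 36 complex I genes, 7 of 8 of complex III and 14 of 17 of complex V. Complex IV was divided, with 6 higher and 10 lower of 17. Ndufv3 (chr17:31520115-31531331) was the lowest, at 243 and 248 CPM against 777 and 766 CPM in hormone classes (-1.64 ± 0.08, adjusted p = 7.52e-34). Atp5g1 had 576 and 538 CPM against 1173 and 1202 CPM (-1.01 ± 0.08, adjusted p = 7.53e-13), and Ndufa1 (-1.0) and Atp5l (-0.99), a subunit of the membrane part of ATP synthase, were close to it. Ndufa4 was higher, at 818 and 833 CPM against 664 and 659 CPM (0.39 ± 0.06, adjusted p = 4.81e-08), as were Sdhc (0.28) and Cox5a (0.27).

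Cycling cells, marked by Top2a and Mki67 and still holding Gh and Prl messages, had 13 nuclear members higher and 37 lower, beside 25.0% and 11.9% of all genes, and 9 and 51 with TMM scaling. Cox5a was the highest of those with at least 50 CPM, with 310 and 324 CPM against 207 and 201 CPM in hormone classes (0.69 ± 0.09, adjusted p = 5.80e-10). Atp5o, which links the stalk of ATP synthase to its catalytic head, had 376 and 391 CPM against 270 and 260 CPM (0.56 ± 0.08, adjusted p = 1.02e-08). Ndufb4 was the lowest of them, with 224 and 234 CPM against 508 and 515 CPM (-1.10 ± 0.09, adjusted p = 8.16e-20). Of the 36 complex I genes 19 were lower and 1 higher, and of the 17 complex V genes 5 were higher and 6 lower.

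Endothelial-like cells had 10 nuclear members higher and 56 lower, beside 28.5% and 30.1% of all genes, with a median of -0.52 beside -0.11. Cox5a (chr9:57521274-57532426) was again the highest of those with at least 50 CPM, at 342 and 387 CPM against 207 and 201 CPM in hormone classes (0.89 ± 0.09, adjusted p = 1.32e-15). Atp5b, the catalytic beta subunit of ATP synthase, had 948 and 1040 CPM against 680 and 704 CPM (0.53 ± 0.07, adjusted p = 1.63e-10). Ndufv3 had 276 and 238 CPM against 777 and 766 CPM (-1.57 ± 0.09, adjusted p = 2.56e-29), and Atp5e had 591 and 593 CPM against 1651 and 1816 CPM (-1.47 ± 0.07, adjusted p = 1.29e-34). Atp5b and Atp5e, parts of the same catalytic head and stalk, thus differed from hormone classes in opposite directions.

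In fibroblast-like cells 56 nuclear members were lower and 6 higher, beside 17.6% and 19.9% of all genes, with a median of -0.50 beside -0.13. Atp5g2 had 346 and 321 CPM against 772 and 758 CPM in hormone classes (-1.18 ± 0.09, adjusted p = 4.86e-20), and Ndufa1 had 339 and 319 CPM against 780 and 873 CPM (-1.17 ± 0.10, adjusted p = 1.33e-18). In macrophage-like cells 76 of the 89 were lower and the rest did not pass the test, beside 36.9% of all genes lower and the all-gene median of -1.11. With DESeq2 7 were higher and 39 lower. Ndufa1 had 195 and 133 CPM there against 780 and 873 CPM (-2.24 ± 0.13, adjusted p = 4.03e-28), and Ndufa11, a complex I membrane subunit, had 157 and 96.3 CPM against 529 and 520 CPM (-2.09 ± 0.15, adjusted p = 1.73e-22). Counted over all 11 classes, 71 of the nuclear and 8 of the mitochondrial members had their lowest mean level in macrophage-like cells. The highest mean level fell in melanotrope-like cells for 33 nuclear members and in gonadotrope-like cells for 25, while 8 mitochondrial members peaked in pituicyte-like cells and 4 in gonadotrope-like cells. Such counts of lowest and highest classes are not given over all genes, so they cannot be read as a trait of the members.

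**Figure D4:**
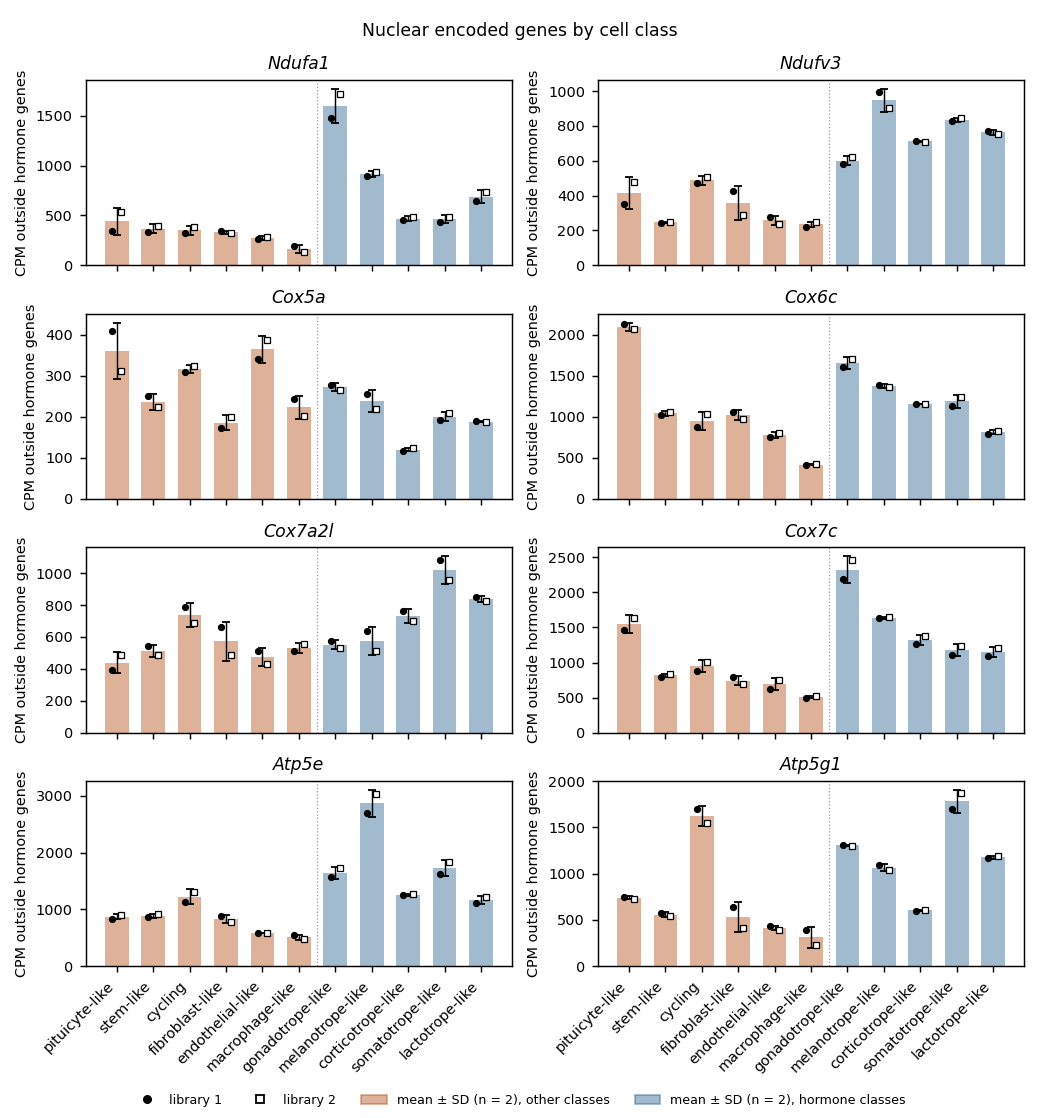
CPM outside hormone genes of 8 nuclear encoded members in each class, as bars for the mean with SD (n = 2 libraries) and a point for each library. Ndufa1 is highest in gonadotrope-like cells (1475 and 1719 CPM), Atp5e in melanotrope-like cells (2697 and 3034 CPM) and Atp5g1 in somatotrope-like cells (1696 and 1869 CPM), with cycling cells next (1703 and 1547 CPM).

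The widest ranges belonged to 3 genes that stand in for a common subunit: Cox4i2 for Cox4i1, an isoform of complex IV known for its induction at low oxygen in lung and other tissues, Cox6b2 for Cox6b1, known from testis, and Ndufa4l2 for Ndufa4, known as a target of hypoxia-inducible factor. All were highest in fibroblast-like cells. Cox6b2 (chr7:4751792-4753094) had 617 and 716 CPM there against 4.16 and 3.39 CPM in hormone classes, a 177-fold ratio of mean CPM (adjusted p = 2.14e-30). Cox4i2 (chr2:152754173-152765037) had 194 and 218 CPM against 0.934 and 0.833 CPM, a ratio of 233 (adjusted p = 4.49e-13). Ndufa4l2 (chr10:127514967-127517154) had 346 and 330 CPM against 2.55 and 1.72 CPM, a ratio of 158 (adjusted p = 6.50e-26). As a share of each pair, Cox6b2 made up 51.0% and 55.6% of Cox6b1 plus Cox6b2, Ndufa4l2 43.2% and 37.3% of its pair, and Cox4i2 14.1% and 17.1% of its pair. The annotated positions of Ndufa4l2 and the antisense-lying Shmt2 overlap, and counts there are uncertain where strand was not used.

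The class was not uniform in this. Fibroblast-like cells with UMIs of at least 3 of 7 pericyte markers, 10 and 9 cells, held Cox4i2 at 1251 and 1674 CPM, against 35.5 and 48.6 CPM in the 63 and 80 cells with fewer. Ndufa4l2 stood at 1841 and 2616 CPM in the first and at 121 and 63.8 CPM in the second. Cox6b2 ran the other way, with 165 and 157 CPM in the cells with pericyte markers and 685 and 781 CPM in the rest. The collagen gene Col1a1 had 307 and 759 CPM in the cells with pericyte markers and 1235 and 1325 CPM in the rest. Rgs5 had 6327 and 9600 CPM against 7.1 and 33.4 CPM, but it is one of the 7 markers that made the split, so its difference follows from the selection. These are descriptions of cells within 2 libraries, with no test.

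Cox6b2 was also found outside fibroblast-like cells. In stem-like cells it had 72.8 and 97.7 CPM against 4.16 and 3.39 CPM in hormone classes, a ratio of 22.6 (adjusted p = 2.75e-22), and made up 10.6% and 13.5% of its pair. At least 1 UMI was seen in 41.0% of the stem-like cells of library 1 (exact binomial 95% interval 33.3% to 49.0%) and 47.0% of those of library 2 (39.2% to 54.9%). The share in somatotrope-like cells, whose median depth outside hormone genes was 4907 and 5172 UMIs beside 9015 and 9156 in stem-like cells, was 0.481% and 0.622%. In pituicyte-like cells Cox6b2 had 111 and 34.2 CPM, with the libraries far apart (adjusted p = 3.07e-07). These levels rest on 13 UMIs in 8 of 22 cells and 7 UMIs in 6 of 36 cells. Cox4i2 in endothelial-like cells reached 0.934% and 2.94% of its pair, where summed pericyte markers were 470 and 778 CPM, beside 1932 and 2209 CPM in fibroblast-like cells. The part of those markers' cells was not tested.

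**Figure D5:**
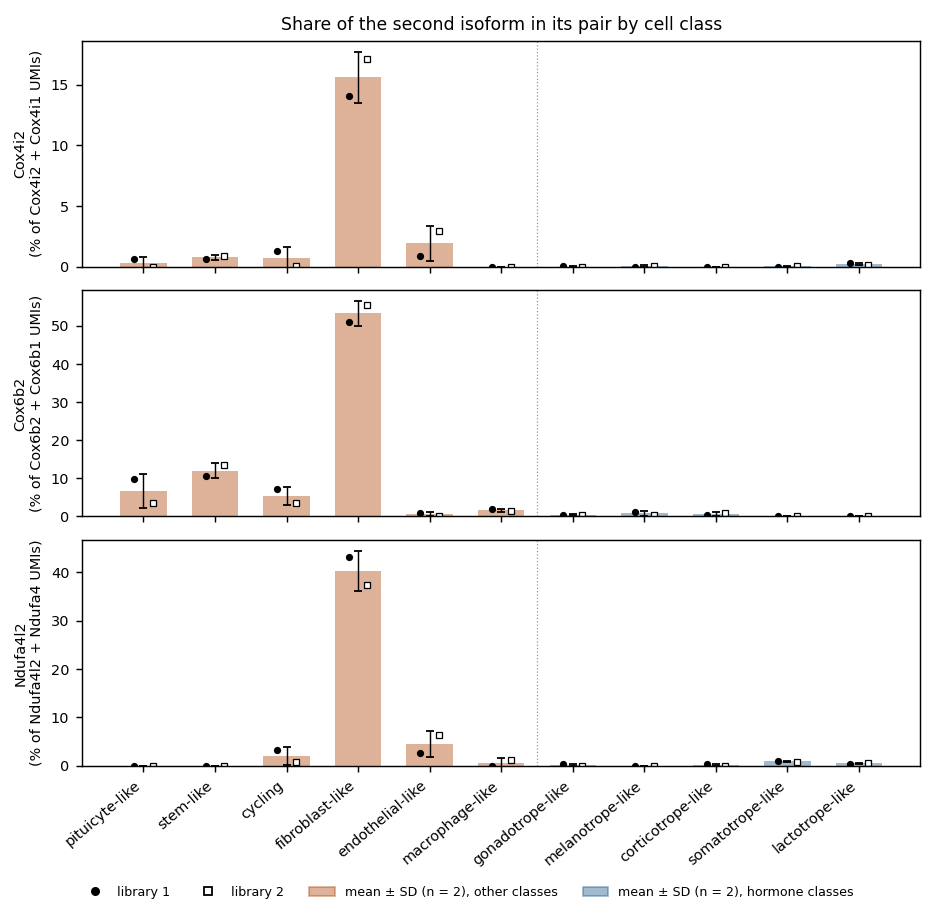
Share of each isoform in the sum of the isoform and its common partner (percent) for Cox4i2, Cox6b2 and Ndufa4l2 in each class, as bars for the mean with SD (n = 2 libraries) and a point for each library. Fibroblast-like cells hold the highest shares for Cox6b2 (51.0% and 55.6%), Ndufa4l2 (43.2% and 37.3%) and Cox4i2 (14.1% and 17.1%), and stem-like cells follow for Cox6b2 (10.6% and 13.5%).

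A further isoform of complex IV, Cox7a1, known from heart and skeletal muscle, was low in every class but patterned. Gonadotrope-like cells had 28.4 and 37.8 CPM against 8.33 and 7.03 CPM in the other hormone classes (2.37 ± 0.22, adjusted p = 1.47e-14). Stem-like cells had 26.7 and 18.0 CPM against 12.3 and 13.2 CPM in hormone classes (1.33 ± 0.25, adjusted p = 6.53e-06). Somatotrope-like cells had 1.14 and 2.88 CPM against 15.1 and 15.8 CPM in the other hormone classes. Cox8b, also a muscle isoform in rodents, had 8.28 and 16.3 CPM in corticotrope-like cells against 0.531 and 0.127 CPM in the other hormone classes. Fibroblast-like cells had 21.6 and 24.5 CPM against 2.08 and 3.35 CPM in hormone classes. These levels rest on 9 and 21 UMIs in corticotrope-like and 7 and 9 UMIs in fibroblast-like cells. Cox8b was abundant enough to be tested only through the classes where it is high, so no p-value is given for it.

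Other mitochondrial and energy lists were counted in the same fits. In gonadotrope-like cells 12 of 34 assembly factors outside the member rule were higher and 2 lower, and the share over all genes was 20.2% for higher and 16.2% for lower. Coa5, for complex IV assembly, led with 60.4 and 66.2 CPM against 29.1 and 27.8 CPM (1.18 ± 0.14, adjusted p = 3.03e-12). The electron-transferring flavoprotein gene Etfa, which feeds electrons from fatty acid oxidation into the chain, had 223 and 232 CPM against 71.8 and 77.5 CPM (1.62 ± 0.09, adjusted p = 4.23e-29). Of 19 carriers, channels and import genes 11 were higher and 4 lower, led by Chchd10 of the cristae (1.19) and the ATP/ADP carrier gene Slc25a5 (0.69). Of 19 glycolysis genes 10 were higher and the other 9 did not pass the test. Of 76 mitochondrial ribosome genes 14 were higher, a share near that of all genes, and 5 lower.

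In melanotrope-like cells 12 of 76 mitochondrial ribosome genes were higher, close to the 11.9% of all genes, and 1 was lower, beside 6.08% of all genes. The gene of the ATP synthase inhibitor, Atpif1, had 1902 and 1870 CPM there against 1339 and 1322 CPM (0.51 ± 0.07, adjusted p = 7.91e-10). Etfa, higher in gonadotrope-like cells, was lower, at 62.8 and 59.1 CPM against 112 and 121 CPM (-0.76 ± 0.17, adjusted p = 0.000353).

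In stem-like cells, where 34.4% of all genes were higher and 23.8% lower, 42 of 76 mitochondrial ribosome genes were lower and 4 higher, and 15 of 34 assembly factors outside the rule were lower and 4 higher. Cox17, the copper chaperone of complex IV, had 191 and 207 CPM against 455 and 485 CPM in hormone classes (-1.22 ± 0.08, adjusted p = 1.36e-25). Of 19 glycolysis genes 10 were higher and 4 lower. Aldoc, a brain-type aldolase, had 1489 and 1331 CPM against 27.3 and 24.6 CPM (adjusted p = 7.39e-11), and Ldhb, the lactate dehydrogenase subunit of heart, had 364 CPM in both libraries against 13.3 and 11.0 CPM (adjusted p = 1.28e-65). Of 8 regulators of mitochondrial genes 7 were higher, among them Ppargc1a, the coactivator PGC-1α, at 12.2 and 16.4 CPM against 5.13 and 5.61 CPM (2.29 ± 0.36, adjusted p = 3.63e-08). Regulator messages were thus higher in a class where the nuclear members were lower, which is a count and not a relation that was tested.

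In endothelial-like cells 6 of 8 regulators were higher and 1 lower, beside 28.5% and 30.1% of all genes. Nrf1 itself had 26.7 and 32.8 CPM against 13.1 and 11.6 CPM in hormone classes (1.32 ± 0.28, adjusted p = 2.47e-05). Chchd10 had 21.1 and 18.2 CPM against 409 and 387 CPM (-4.12 ± 0.16, adjusted p = 4.59e-41), and Atpif1 438 and 377 CPM against 1452 and 1431 CPM (-1.81 ± 0.08, adjusted p = 9.37e-35). In cycling cells Tfam, which packages and transcribes mitochondrial DNA, had 65.9 and 70.0 CPM against 34.3 and 31.0 CPM (1.09 ± 0.19, adjusted p = 1.01e-06), beside 11 mitochondrial members lower. In pituicyte-like cells Higd2a, a complex IV assembly protein, had 539 and 528 CPM against 175 and 168 CPM (1.66 ± 0.14, adjusted p = 1.53e-18), and Ldhb 308 and 455 CPM against 13.3 and 11.0 CPM (adjusted p = 1.43e-35).

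Of 6375 genes compared over the 11 class means of log2 CPM, those most like the summed mitochondrial members were Mt3, a metallothionein (Pearson correlation 0.96), 2310061I04Rik (0.95), Pccb, a subunit of the mitochondrial propionyl-CoA carboxylase (0.93), and the transcription factor gene Sox5 (0.93). Those most like the summed nuclear members were the RNA-binding protein gene Tia1 (0.97), Znhit2, Etaa1os and Usmg5 (0.96 each). Usmg5 encodes a small protein that travels with ATP synthase and lies outside the rule only by its name. It had 921 CPM on average in melanotrope-like, 864 in gonadotrope-like and 177 in macrophage-like cells, and these were the highest 2 and the lowest of its class means. None of the 8 is a member, and the correlations describe 11 points with no test.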

How the data were processed

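Raw UMI counts per gene and cell were deposited by the authors. The submitters' processing notes name Cell Ranger, STAR and mm10, and neither versions nor strand use nor the treatment of multiply mapped reads is given in the sources used here. Per the labels' protocols, viability was 71% to 82%. The number ending each barcode was taken as the pool, 2 columns of the files were not used, and 58 repeated symbols were kept apart by identifier.

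Cells needed at least 500 UMIs, 250 genes and at most 20% mitochondrial UMIs of all UMIs, and the 7.6% with the highest doublet scores, the expected multiplet rate, were removed (494 and 537). The rest were clustered on 104 marker genes, as log1p of counts per 10000 outside hormone genes, with 12 principal components, 15 neighbours and Leiden at resolution 1 (leidenalg 0.10.2, igraph 0.11.9). A class needed 3 markers and 20 cells per library. Clusters in which 20% to 90% of cells held over 30% Gh stayed unnamed, a rule set after the data were seen, as did clusters led by another class's markers, which left 620 and 593 cells unnamed.

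UMIs summed per class and library were tested with edgeR 4.0.16 (R 4.3.3; robust quasi-likelihood test, filterByExpr on class, totals outside 7 hormone genes, no TMM, library as a block since all classes of a library come from the same pool of animals, Benjamini-Hochberg adjustment). Marker genes, 86 in all, were left out of the tests. The fit over 22 columns left 10 residual degrees of freedom, had a common coefficient of variation of 0.0633, and was tested on simulated data. The values given for several hormone classes are means of their CPM in each library, while a log2 fold change uses the mean of their fitted log2 levels. Intervals and UMI counts cover counting error only. DESeq2 1.42.0 and other scalings, filters and clusterings were tried as alternatives. Members, lists and tests were chosen with earlier results of these data known. Named were the 13 mitochondrial members, 8 tissue isoforms, the 4 highest and 4 lowest nuclear members per class past the test with 1 direction in both libraries and a higher side of at least 50 CPM, the 6 with the widest range, the 2 largest changes of other lists, and the 4 genes most like each summed set.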

Additional observations from a re-analysis of the deposited data

How the results depend on the processing

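The log2 ratio of mitochondrially to nuclear encoded UMIs moved by less than its spread between libraries in 87 of 98 recomputed values, and in 11 by more. The 87 include all values left with 1 library at a time. With 2 libraries these lie within the spread by construction, so they say nothing about stability. With at most 10% mitochondrial UMIs, of all UMIs per cell, the log2 ratio was 0.74 in gonadotrope-like cells (0.90 in the report's setting) and 0.55 in corticotrope-like cells (0.62), and too few pituicyte-like cells remained for a value. Without doublet removal it was 0.60 in corticotrope-like, 0.70 in stem-like (0.82) and 1.32 in pituicyte-like cells (1.35). With clustering on 2000 variable genes it was 0.63 in corticotrope-like and 1.31 in pituicyte-like cells, and without assembly factors and isoforms 0.66 in corticotrope-like, 0.86 in stem-like and 1.38 in pituicyte-like cells. With no mitochondrial maximum it was 1.45 in pituicyte-like cells. Left with 1 library at a time, it ran from 1.34 to 1.35 in pituicyte-like, from 0.84 to 0.96 in gonadotrope-like, from 0.79 to 0.84 in stem-like and from -0.47 to -0.17 in endothelial-like cells. Counts of calls cannot be tested with 1 library per class.

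Counts of mitochondrial members called stayed within 1.5 times in 149 of 155 recomputed values and those of nuclear members in 151 of 155. The exceptions for the mitochondrial members were melanotrope-like against corticotrope-like cells (7 in the report, 4 with DESeq2 and 4 with TMM), melanotrope-like against other hormone classes (7, and 2 with either TMM scaling) and stem-like cells (7, and 2 with DESeq2). For the nuclear members they were lactotrope-like cells (57, 35 with TMM and 33 with TMM over all genes), macrophage-like cells (76, and 46 with DESeq2) and pituicyte-like cells (28, and 43 with TMM over all genes). The cause was not tested. Without the replicate block, that is without pairing classes by pool, 4 mitochondrial members were called in stem-like cells, and no other count moved by over 1.5 times. Of the 432 fold changes of named genes recomputed with 1 library left out, none changed sign among those past the test. For the nuclear members named by rank this was fixed in advance, because they were chosen for having 1 direction in both libraries.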
